A study of Rattus norvegicus with 6 samples.

Results

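Genes of the vascular endothelial growth factor (VEGF) family were examined in RNA-seq data of crushed and intact rat sciatic nerves. The set held 10 genes chosen by name, 3 ligands (Vegfa, Vegfb and Vegfc), the secreted VEGF-C cofactor Ccbe1, the 3 receptor kinases Flt1, Kdr and Flt4, the 2 neuropilins Nrp1 and Nrp2, and the endothelial adhesion molecule Pecam1. Rows of these names were taken from a table of 30957 rat genes, which gave 9 genes. No row carried the name Pecam1, so that gene was not analysed here. Ccbe1 is one of the genes the study drew into its network from these same nerves, so its difference between the groups is no independent evidence.

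The nerves came from adult male Sprague-Dawley rats with no transgene. The crushed group (n = 3) was the proximal stump of sciatic nerves compressed with forceps, which the methods place at 4 days postinjury (dpi), and the intact group (n = 3) was uninjured nerves of the opposite side. The labels give no time point. They call the nerves biological replicates but do not say which rat each came from, so the p-values measure the spread between these samples. Values of single nerves are given in the order of replicates 1, 2 and 3. The methods and the labels also differ in the RNA extraction and in the side of the lesion. On the side, the methods themselves name a right incision and a crushed left nerve.

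VEGF-A is the main growth factor of blood vessels and acts through Kdr (VEGFR2), while Flt1 (VEGFR1) binds VEGF-A, VEGF-B and placental growth factor and can hold VEGF-A away from Kdr. VEGF-C drives growth of lymphatic vessels through Flt4 (VEGFR3), after Ccbe1 has helped the protease Adamts3 cut its inactive form. Neuropilins are co-receptors without kinase activity, shared between VEGFs and class 3 semaphorins, the axon guidance ligands. In peripheral nerve that was cut through, new vessels driven by VEGF-A are known to serve as tracks for migrating Schwann cells. The nerves studied here were crushed, not cut.

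In edgeR's quasi-likelihood test, none of the 9 genes was called differentially expressed between crushed and intact nerves. The methods describe the study's network, which holds Ccbe1, as drawn from differentially expressed genes. The study's own call for Ccbe1 may thus differ from the one made here. The call took its limits from the methods, a log2 fold change beyond 1 in either direction with a p under 0.001, read here as unadjusted, and 0.282% of the 12393 genes tested met them. By an adjusted p under 0.05 in edgeR's quasi-likelihood test, again 0 of the 9 passed, against 3.12% of all genes. By an unadjusted p under 0.05, 4 of the 9 passed (Vegfc, Ccbe1, Nrp1 and Nrp2), against 16.2% of all genes. With DESeq2, Ccbe1 met the limits, against 33 of the 12393 genes. Ccbe1 and Nrp1 had an adjusted p under 0.05 with DESeq2, against 512 of the 12393 genes. The groups did not overlap in 5 of the 9 genes, with the crushed nerves above for Ccbe1 and Flt1 and below for Vegfc, Nrp1 and Nrp2, against 23.0% of all genes. The median log2 fold change of the 9 genes was -0.08, against -0.0017 for all genes tested. In bulk nerve, fewer cells of a type and less RNA per cell cannot be told apart.

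**Figure D1:**
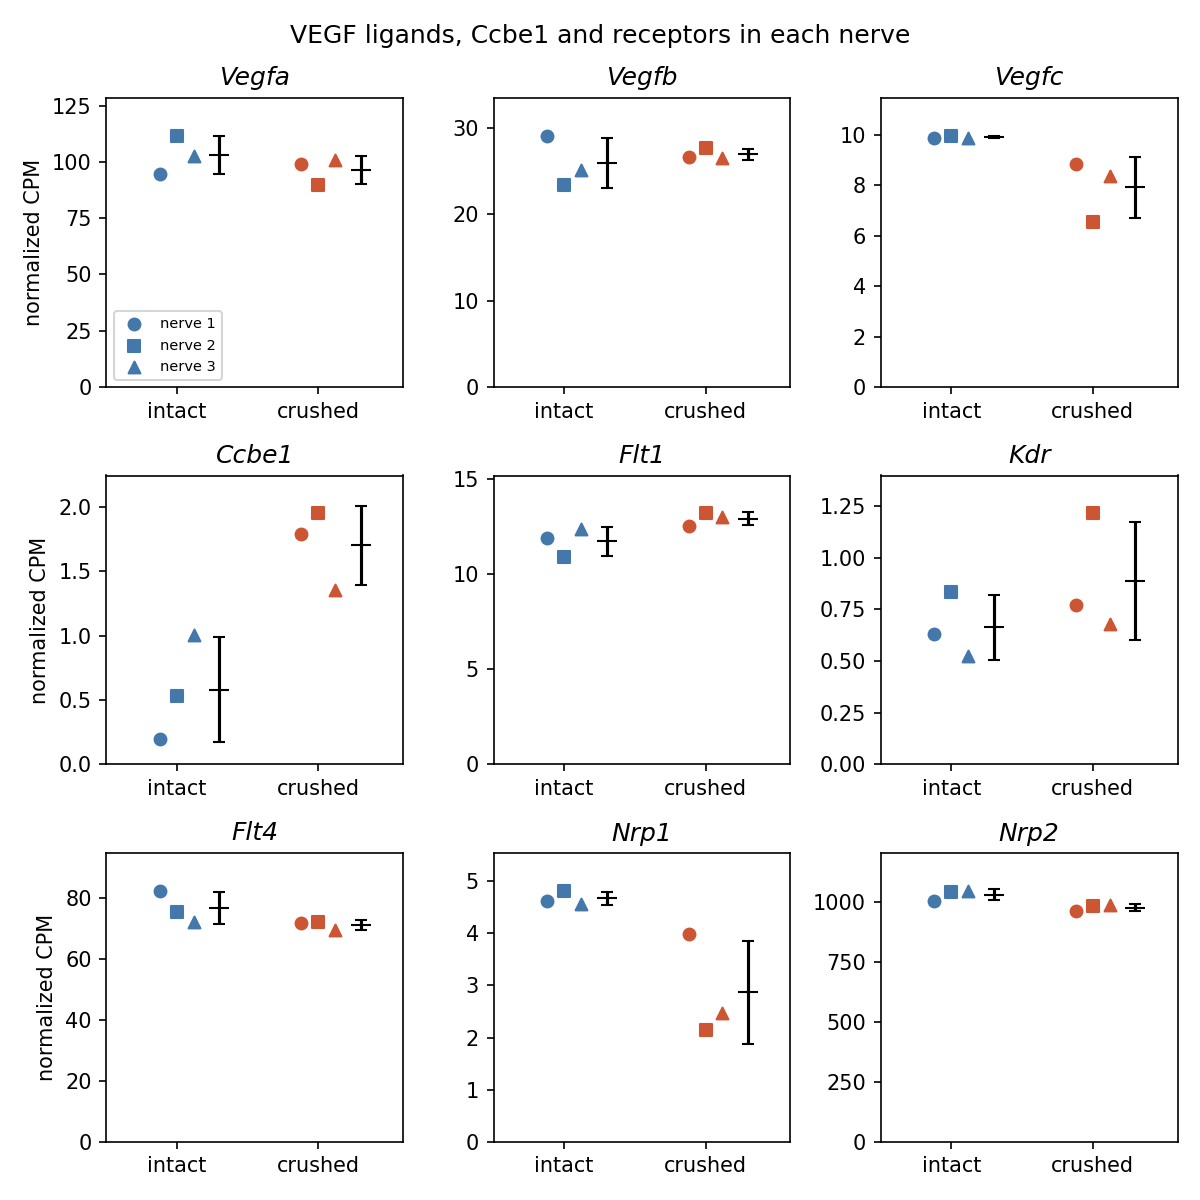
Normalized CPM (counts scaled to library size with TMM factors, axes from 0) of each gene in the 3 intact and 3 crushed nerves, 1 point per nerve, with the mean and SD as a bar. Ccbe1 has the largest fold difference between the groups (0.579 against 1.70 CPM on average), and Nrp1 and Vegfc lie lower in the crushed nerves, with crushed nerve 1 nearest to the intact nerves for both.

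Libraries held between 24844371 and 27139360 counts on genes, and the floor of 3 counts used here came to 0.110 to 0.121 normalized CPM. The labelled tissue was checked against marker genes. Of the Schwann cell markers, Sox10, S100b, Mbp and Mag had at most 3 counts in every nerve, and the highest were Cnp (1086 to 1473 counts) and Pmp22 (821 to 968 counts). Of 10 macrophage and leukocyte markers, Aif1, Cd163, Ptprc, Mrc1 and Adgre1 had at most 3 counts, and the highest were Cd14 (49 to 84 counts) and Cd68 (29 to 52 counts). The erythrocyte genes Hbb and Alas2 had 0 counts in every nerve.

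Endothelial cells carry most VEGF receptors in vascularized tissue, and many of their other markers were near or at 0 in both groups. Of 20 blood endothelial markers with a row in the table, Flt1 and Kdr included, 10 had at most 3 counts in every nerve (Tie1, Cldn5, Emcn, Plvap, Erg, Sox17, Sox18, Robo4, Icam2 and Cd34), and 5 of these were at 0 throughout. Cdh5, the cadherin of endothelial junctions, had between 0 and 5 counts. Only 5 of the 20 passed the expression filter, led by Flt1 and by the secreted factor Egfl7 (162 to 252 counts). The list summed to between 24.1 and 25.5 normalized CPM in intact and between 26.1 and 27.0 in crushed nerves. Without Flt1 and Kdr, the other 18 markers summed to 11.9 to 12.6 and 12.5 to 12.8 normalized CPM, ranges that overlapped. Of the 5 tested markers, 4 had a log2 fold change above 0 and only Tek lay below, with a median of 0.21. The adjusted p was under 0.05 in edgeR for 0 of the 5. Tek, the angiopoietin receptor, singled out after its values were seen, gave 92, 80 and 100 counts intact against 49, 71 and 59 crushed, and its log2 fold change was -0.66 (standard error 0.180; edgeR's adjusted p = 0.0874). Those of Vwf and Egfl7 were 0.49 and 0.21 (edgeR's adjusted p = 0.494 and 0.398), and those of Flt1 and Kdr, both above 0, are given below. Of 6 lymphatic endothelial markers, Prox1, Lyve1, Mmrn1 and Ccl21 had 0 counts in all 6 nerves. The other two, Flt4 and the surface glycoprotein Pdpn (1432 to 2101 counts), carried the whole sum, 130 to 149 normalized CPM in intact and 137 to 149 in crushed nerves.

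**Figure D2:**
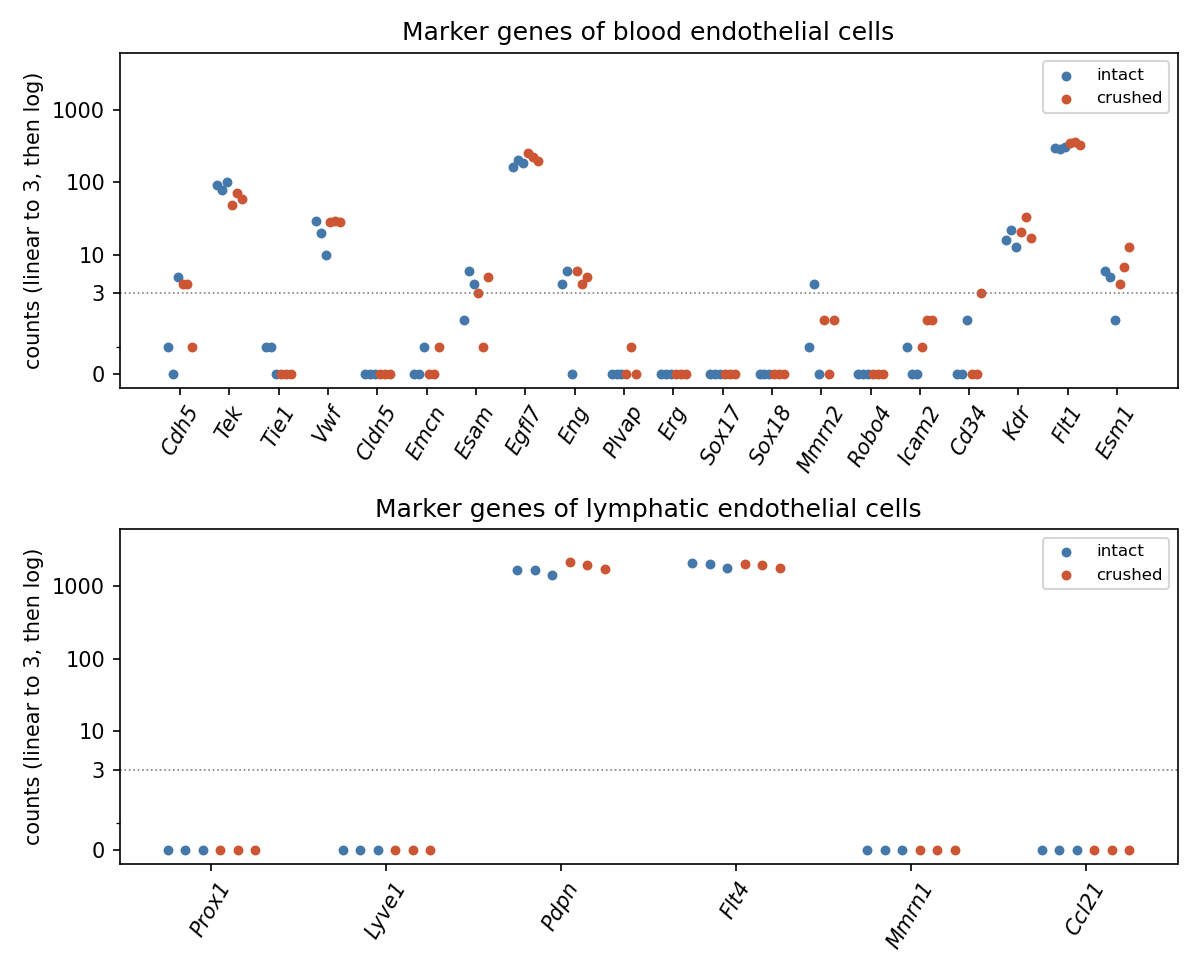
Counts of the blood and lymphatic endothelial markers in each of the 6 nerves (axis linear from 0 to 3, shown by the dotted line, and logarithmic above). Flt1, Egfl7, Pdpn and Flt4 stand at 162 counts or more in every nerve, whereas Prox1, Lyve1, Cldn5, Erg, Sox17 and Sox18 are at 0 in all.

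Levels of different genes were set side by side only per length, as the deposited FPKM. The methods of the study name an RNase R treatment of the RNA before library preparation. Its part in these levels and in the markers at 0 was not tested. Nrp2 had the highest level of the family, 161 ± 4.27 FPKM in intact nerves (SD, n = 3), above 97.4% of the genes with a count. Vegfa followed with 28.1 ± 2.35 FPKM, then Vegfb with 14.4 ± 1.58 and Flt4 with 13.4 ± 0.869, whose ranges over the intact nerves overlapped (13.1 to 16.1 and 12.6 to 14.3 FPKM). Vegfc (4.63 ± 0.0298 FPKM) and Flt1 (1.68 ± 0.110 FPKM) stood apart from their neighbours in the order. Nrp1 (0.669 ± 0.0186 FPKM) and Ccbe1 (0.515 ± 0.364 FPKM) overlapped in intact nerves, and Kdr was last with 0.0857 ± 0.0202 FPKM. The order was the same in crushed nerves except that Ccbe1 stood above Nrp1, with ranges apart (1.22 to 1.75 against 0.309 to 0.579 FPKM).

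The receptors and co-receptors differed widely in level from one another. The FPKM of Nrp2 was 241 ± 8.11 times that of Nrp1 in intact nerves, and that of Flt4 was 161 ± 34.1 times that of Kdr (SD, n = 3 each). Flt4 stood 7.99 ± 0.770 times above Flt1 in intact and 6.73 ± 0.246 times in crushed nerves. Among the ligands, the FPKM of Vegfa was 1.97 ± 0.369 times that of Vegfb and 6.06 ± 0.470 times that of Vegfc in intact nerves. Flt4 was thus measured at a higher level than Flt1 and Kdr, and Nrp2 at a higher level than Nrp1. Of the lymphatic markers, Prox1 and Lyve1 were at 0 in these nerves, while Pdpn had 1432 to 2101 counts.

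**Figure D3:**
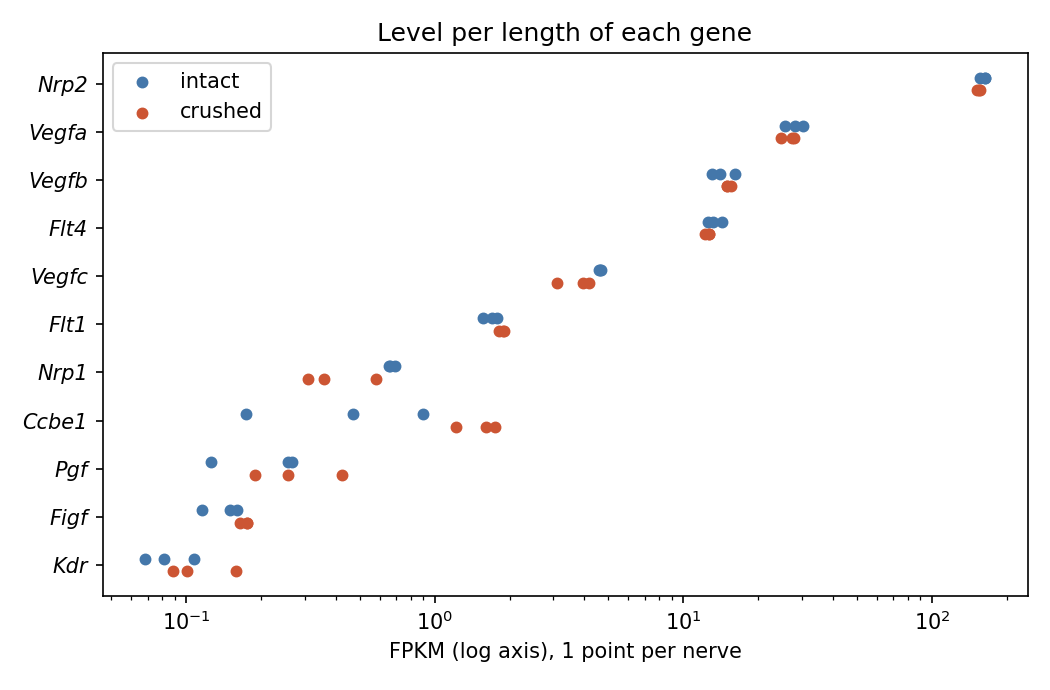
FPKM of each gene in each nerve (log axis), with the further ligands Pgf and Figf. Nrp2 is at the top (161 FPKM on average in intact nerves) and Kdr at the bottom (0.0857 FPKM), and the other genes of the family spread between them.

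Promoters of 4 receptors and co-receptors are shown because these genes span a wide range of levels. RefSeq sequences of the GRCr8 assembly, which is not the build of the counts, were found for 8 of the 10 genes, as 250 bases before to 50 after the start of each gene. They were searched on both strands for the cores ACGTG and GCGTG of the hypoxia response element, the site bound by hypoxia-inducible factors (HIFs). The bases before the start follow for Nrp2 (chr9:71617004-71617253, plus strand), Nrp1 (chr19:73256307-73256556, plus strand), Flt4 (chr10:34414584-34414833, plus strand) and Flt1 (chr12:12333180-12333429, plus strand), with core matches on either strand in capitals.
Nrp2: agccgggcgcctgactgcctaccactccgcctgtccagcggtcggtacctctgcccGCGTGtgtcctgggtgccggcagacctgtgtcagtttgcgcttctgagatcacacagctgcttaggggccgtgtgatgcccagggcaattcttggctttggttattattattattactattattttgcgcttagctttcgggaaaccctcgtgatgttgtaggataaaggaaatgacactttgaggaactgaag
Nrp1: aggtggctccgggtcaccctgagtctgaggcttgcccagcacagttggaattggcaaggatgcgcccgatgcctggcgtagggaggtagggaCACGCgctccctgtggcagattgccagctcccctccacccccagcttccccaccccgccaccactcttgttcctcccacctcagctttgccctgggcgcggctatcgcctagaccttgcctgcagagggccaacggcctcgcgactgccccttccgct
Flt4: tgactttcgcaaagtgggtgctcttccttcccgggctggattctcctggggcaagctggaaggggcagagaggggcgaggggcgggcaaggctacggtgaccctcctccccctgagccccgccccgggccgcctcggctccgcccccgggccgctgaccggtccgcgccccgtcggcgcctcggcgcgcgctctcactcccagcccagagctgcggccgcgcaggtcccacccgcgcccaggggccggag
Flt1: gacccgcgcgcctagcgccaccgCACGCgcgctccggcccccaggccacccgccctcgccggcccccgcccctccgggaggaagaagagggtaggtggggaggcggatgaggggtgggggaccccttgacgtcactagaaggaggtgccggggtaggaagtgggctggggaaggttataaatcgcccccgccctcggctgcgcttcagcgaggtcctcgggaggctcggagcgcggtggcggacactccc

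The core GCGTG was present in the windows of Vegfb, Flt1, Kdr, Nrp1 and Nrp2, which was 5 of 8 genes, and ACGTG in none of the 8. Of 33469 rat promoter windows of the same length, 29.7% held GCGTG, 19.3% held ACGTG and 41.6% held either. Vegfa, entered with 2 starts, Vegfc and Flt4 had neither core in these windows, which says only that these letters are not in them. The windows of the 8 genes were between 53.0% and 75.0% G and C, against a median of 51.7% over all windows. Flt1 was the only one of the 8 with the letters TATAAA before its start, a string found in 8.06% of all windows.

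Among the ligands, neither Vegfa nor Vegfb passed the test. Vegfa, on chromosome 9 from 17340341 to 17355681 in the deposited coordinates (Rnor_6.0 in the submitters' processing notes), gave 2399, 2947 and 2544 counts intact against 2702, 2432 and 2533 crushed. The groups overlapped, and intact nerve 2 was the highest. The log2 fold change of Vegfa was -0.09 (95% interval -0.24 to 0.05; edgeR's adjusted p = 0.522), so that crushed levels between 0.846 and 1.04 times the intact level were compatible with the data. Vegfb, a ligand of Flt1 tied to fatty acid handling rather than to vessel sprouting, lies on chromosome 1 from 222239022 to 222242644. It gave 737, 619 and 624 counts intact against 728, 753 and 664 crushed. The groups overlapped here as well, with a log2 fold change of 0.06 (95% interval -0.12 to 0.24; edgeR's adjusted p = 0.783).

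Vegfc, the lymphatic ligand, was lower in the crushed nerves without passing the test. It lies on chromosome 16 from 40440207 to 40555576 and gave 250, 263 and 245 counts intact against 241, 178 and 210 crushed. All 3 crushed nerves lay below all 3 intact nerves after scaling, 7.92 ± 1.20 against 9.91 ± 0.0477 normalized CPM (SD, n = 3 each), with crushed nerve 2 the lowest. The log2 fold change was -0.32 (standard error 0.116, 95% interval -0.58 to -0.07; edgeR's adjusted p = 0.195). The remaining ligands, placental growth factor (Pgf) and VEGF-D (named Figf in the table), were near the limit of detection, with 5 to 18 and 9 to 14 counts. Their log2 fold changes were 0.41 (edgeR's adjusted p = 0.690) and 0.26 (adjusted p = 0.743 in the same edgeR fit).

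The ligands for lymphatic and blood vessels were also compared within each nerve, where the scaling of the library has no part. The log2 ratio of Vegfc to Vegfa counts was -3.26, -3.49 and -3.38 in intact and -3.49, -3.77 and -3.59 in crushed nerves. The difference of the means was -0.24 (two-sided p = 0.1 by an exact permutation test, which can go no lower with 3 nerves against 3, and 0.15 adjusted over 3 ratios). Intact nerve 2 and crushed nerve 1 were almost level. The log2 ratio of Vegfb to Vegfa differed by 0.16 between the groups (exact permutation p = 0.4, 0.4 adjusted), within the spread between nerves.

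Ccbe1 showed the largest fold change of the 9 genes, at a low level. It lies on chromosome 18 from 61759289 to 61788863 and gave 5, 14 and 25 counts intact against 49, 53 and 34 crushed. Each crushed nerve was above each intact nerve, and the intact nerves were widely spread among themselves. Normalized CPM was 0.579 ± 0.408 in intact and 1.70 ± 0.308 in crushed nerves (SD, n = 3 each). The log2 fold change was 1.56 (standard error 0.383), or 2.95-fold with a 95% interval from 1.64 to 5.30. The edgeR test gave an unadjusted p = 0.00198 and an adjusted p = 0.0579, and over the alternatives the adjusted p lay between 0.00847 and 0.193. Ccbe1 met the limits with DESeq2 on all 6 nerves, and also in edgeR without intact nerve 3, where the log2 fold change was 2.20 and edgeR's adjusted p = 0.0138. Without the expression filter edgeR's adjusted p was 0.0496.

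**Figure D4:**
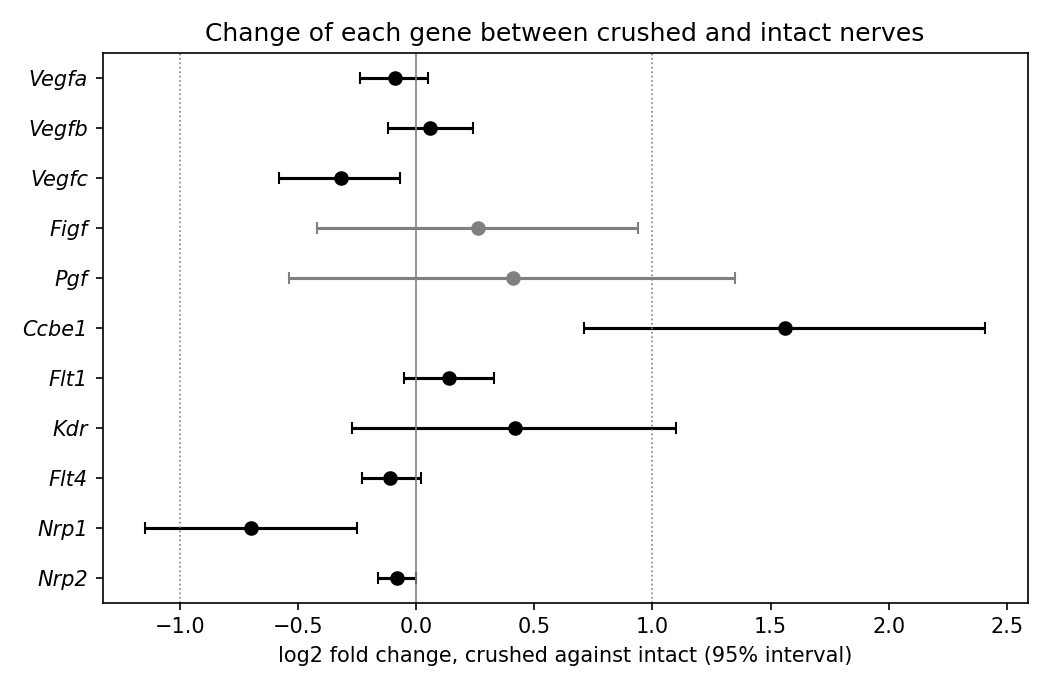
Log2 fold change of crushed against intact nerves with its 95% interval from edgeR's quasi-likelihood fit, with dotted lines at -1 and 1 and the further ligands Figf and Pgf in grey. Ccbe1 is the only gene with a point beyond 1 (1.56), and the intervals of 6 of the 9 genes lie between -1 and 1.

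Beside Ccbe1, 7 genes were listed for VEGF-C activation, of which 4 were tested. Adamts3, the protease that Ccbe1 assists, had 0 counts in all 6 nerves, and its relative Adamts14 and the matrix protein Svep1 had between 0 and 2. Of the 4 genes tested, 2 had a log2 fold change above 0 and 2 below, with a median of 0.0058. Only Ctsd, a lysosomal protease that can also cleave VEGF-C, passed the test, against 3.12% of all genes. Ctsd gave 9701, 10709 and 9207 counts intact against 12532, 12329 and 10888 crushed and rose by 0.22 on the log2 scale (standard error 0.0437; edgeR's adjusted p = 0.0251). The proprotein convertases Furin, Pcsk5 and Pcsk7, which make the first cut in VEGF-C, did not pass. Their log2 fold changes were 0.03, -0.29 and -0.01 (edgeR's adjusted p = 0.8455, 0.0744 and 0.940), with Pcsk5 the nearest to the threshold.

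None of the receptor kinases passed the test. Flt1, on chromosome 12 from 9034308 to 9205905, gave 302, 288 and 307 counts intact against 343, 359 and 326 crushed. The crushed nerves all lay above the intact nerves by a small margin, 12.9 ± 0.339 against 11.8 ± 0.757 normalized CPM (SD, n = 3 each), with a log2 fold change of 0.14 (95% interval -0.05 to 0.33; edgeR's adjusted p = 0.463).

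Kdr, the signalling receptor of VEGF-A, was barely detected. It lies on chromosome 14 from 34727623 to 34787183 and gave 16, 22 and 13 counts intact against 21, 33 and 17 crushed. The groups overlapped, and the interval of the log2 fold change was wide, from -0.27 to 1.10 around 0.42 (edgeR's adjusted p = 0.547), so that at this depth the interval reached beyond a log2 fold change of 1. Flt4, on chromosome 10 from 35078726 to 35121599, gave 2089, 1995 and 1789 counts intact against 1969, 1964 and 1743 crushed. The groups overlapped, and the log2 fold change was -0.11 (95% interval -0.23 to 0.02; edgeR's adjusted p = 0.386).

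Of the neuropilins, Nrp1 had the larger fold change. Nrp1, which binds VEGF-A and the repellent semaphorin Sema3a, lies on chromosome 19 from 61332351 to 61485858. It gave 117, 127 and 113 counts intact against 109, 58 and 62 crushed. Crushed nerves 2 and 3 had about the same low count, while crushed nerve 1 was close to the intact nerves. The means were 4.67 ± 0.131 and 2.87 ± 0.988 normalized CPM (SD, n = 3 each), and the log2 fold change was -0.70 (standard error 0.202, 95% interval -1.15 to -0.25; edgeR's adjusted p = 0.106). Without crushed nerve 1 the log2 fold change was -1.02 with an edgeR adjusted p = 0.0111, and Nrp1 then met the limits. Over the other alternatives the adjusted p lay between 0.0447 with DESeq2 and 0.315.

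Nrp2, which binds VEGF-C and the semaphorin Sema3f, was abundant and differed little in size. It lies on chromosome 9 from 69497121 to 69612087 and gave 25438, 27539 and 25992 counts intact against 26298, 26703 and 24764 crushed. After scaling, the crushed nerves all lay below the intact nerves, 978 ± 13.5 against 1033 ± 23.9 normalized CPM (SD, n = 3 each). The log2 fold change was -0.08 (standard error 0.0353; edgeR's adjusted p = 0.307). Within each nerve, the log2 ratio of Nrp2 to Nrp1 counts was 7.76, 7.76 and 7.85 in intact and 7.91, 8.85 and 8.64 in crushed nerves, a difference of 0.68 (two-sided p = 0.1 by the exact permutation test, 0.15 adjusted). Most of this came from crushed nerves 2 and 3, and crushed nerve 1 was only just above the intact nerves.

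Some marker genes of vessel wall cells and fibroblasts fell in the crushed nerves, in which Vegfc and Nrp1 had the lower values. Of 8 mural markers, 4 were tested and 2 of them fell, where 3.12% of all genes passed in either direction. All 8 together summed to between 195 and 212 normalized CPM in intact and between 157 and 160 in crushed nerves. Pdgfrb, the platelet-derived growth factor receptor of pericytes, fell by 0.77 on the log2 scale (edgeR's adjusted p = 0.00107) and the proteoglycan Cspg4 fell by 0.35 (edgeR's adjusted p = 0.00103), while Rgs5, Acta2, Abcc9 and Kcnj8 had at most 3 counts. Of 8 fibroblast markers, 5 were tested and 3 of them fell, beside the same 3.12% of all genes. The 8 summed to between 1389 and 1524 normalized CPM in intact and between 987 and 1019 in crushed nerves. Without fibronectin (Fn1), which made up most of that sum, the ranges were 185.6 to 199 and 163 to 182 normalized CPM. Fn1 fell by 0.59 on the log2 scale (edgeR's adjusted p = 3.51e-05), and the collagens Col1a1 and Col3a1 fell, with log2 fold changes of -0.69 and -1.76 (edgeR's adjusted p = 0.000662 and 0.0268). Col1a1 had 494 to 537 counts intact and 293 to 363 crushed. Col3a1 was low in both groups, with 22, 23 and 21 counts intact against 10, 3 and 7 crushed, down to the floor of 3. Pdgfra lay on the other side, with a log2 fold change of 0.19 (edgeR's adjusted p = 0.166). Thy1 had a log2 fold change of -0.23 (edgeR's adjusted p = 0.0552), and the defining markers Col1a2, Dcn and Lum were at 0 in every nerve. The part of these genes in the values of Vegfc and Nrp1 was not tested.

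**Figure D5:**
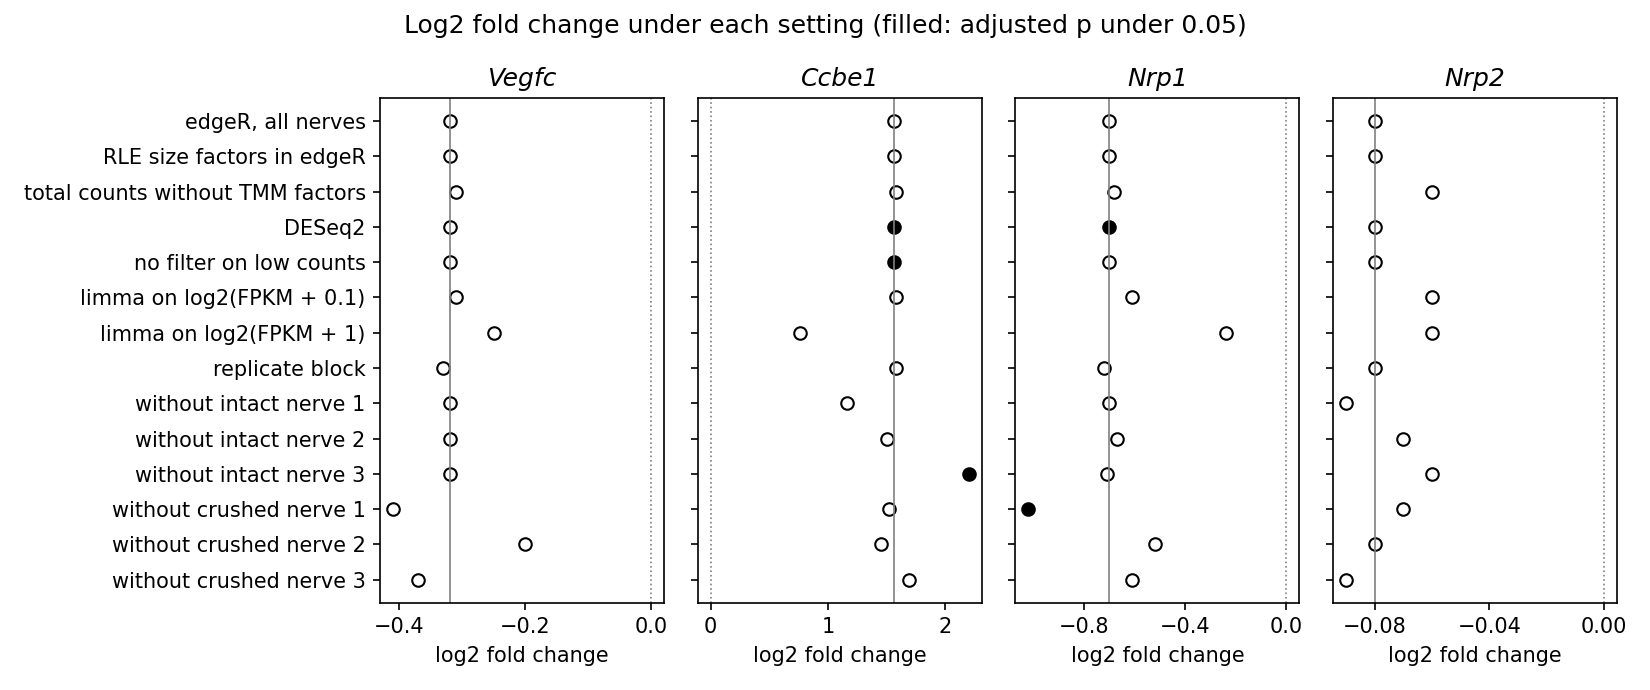
Log2 fold change of Vegfc, Ccbe1, Nrp1 and Nrp2 in each fit, with all nerves, with other scalings and tools, with the replicate number as a block and with 1 nerve left out (filled points, adjusted p under 0.05; solid line, the value with all nerves; dotted line, 0). Each of the 4 genes stays on its side of 0, and filled points occur for Ccbe1 with DESeq2, without the filter and without intact nerve 3, and for Nrp1 with DESeq2 and without crushed nerve 1.

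Vegfa is a target of HIFs, and the genes of oxygen sensing were examined beside it. Of 8 genes listed, 7 were tested, 3 above and 4 below 0, with a median log2 fold change of -0.01. In edgeR 0 had an adjusted p under 0.05, against 3.12% of all genes, and 1 had an unadjusted p under 0.05, against 16.2%. The smallest p-values belonged to Vhl, which marks HIF proteins for degradation (log2 fold change 0.16, edgeR's adjusted p = 0.183), and to the oxygen sensor Egln2 (-0.07, adjusted p = 0.543 in the same edgeR fit). Hif1a itself had between 9229 and 10374 counts. Of 11 further HIF targets tested, 1 rose, 1 fell and 9 did not pass, against 3.12% of all genes that passed. Their median log2 fold change was 0.04. Angptl4, a secreted lipase inhibitor that also acts on vessels, rose from 17.4 to 32.6 normalized CPM, by 0.91 on the log2 scale (standard error 0.0857; edgeR's adjusted p = 0.00017). Adm, which encodes the vasodilator adrenomedullin, fell by 0.48 on the log2 scale (standard error 0.114; edgeR's adjusted p = 0.04998), at the edge of the threshold.

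Of the class 3 semaphorins and their plexin receptors, which share the neuropilins, 10 of 12 were tested, with 6 above and 4 below 0 and a median log2 fold change of 0.02. Sema3f, the ligand of Nrp2, was the only one to pass, against 3.12% of all genes. It gave 3380, 3284 and 3269 counts intact against 3032, 3150 and 2714 crushed and fell by 0.22 on the log2 scale (standard error 0.0463; edgeR's adjusted p = 0.0307). Of 18 other ligands known to promote or restrain vessel growth, 12 were tested, with a median log2 fold change of -0.01. Of these, 2 rose, 1 fell and 9 did not pass, against 3.12% of all genes that passed. The 2 were Angptl4 and the chemokine Cxcl12 (log2 fold change 1.04, edgeR's adjusted p = 2.86e-07), the only gene of these pathway lists to meet the limits of the call. Col18a1, the collagen whose fragment endostatin restrains vessel growth, fell by 0.24 (standard error 0.0505; edgeR's adjusted p = 0.0276). Angpt2, Fgf1, Hgf, Pdgfb, Pdgfd and Sema3e had at most 2 counts in any nerve.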

How the data were processed

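RNA-seq of 3 crushed and 3 intact sciatic nerves was analysed. The authors deposited raw counts per Ensembl gene and FPKM, a level scaled to gene length and library size, for each nerve. The submitters' processing notes name HISAT2, StringTie 1.3.0 and Rnor_6.0. The counting program is not given in the sources used here. All 12 value columns were matched to nerves by title.

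Counts were tested over all genes with edgeR 4.0.16 (limma 3.58.1, R 4.3.3), using TMM factors, its expression filter and the quasi-likelihood test. Standard errors and 95% intervals came from the test statistic. Ratios within nerves used an exact permutation test. The calculation was checked on simulated counts. Alternatives were RLE factors, total counts, DESeq2 1.42.0, no filter, limma on log2(FPKM + 0.1) or log2(FPKM + 1), the replicate block and each nerve left out. List sums without Flt1 and Kdr or Fn1 were added after seeing the data.

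The genes named were all members, further VEGF ligands, the listed genes with the smallest p, markers near 0 and the highest markers. Hif1a, Cdh5, Tek, Col1a1, Col3a1, Pdgfra and genes named as not passing or undetected were added after their values were seen. Members and lists were chosen with earlier results of these data known. Replicates differed by more than sampling noise (chi-square per degree of freedom 3.27 to 11.8). Floors of 3 counts cover counting error only.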

Additional observations from a re-analysis of the deposited data

How the results depend on the processing

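With DESeq2, the genes called at the study's limits went from 0 to 1 (Ccbe1) and those with an adjusted p under 0.05 from 0 to 2 (Ccbe1, log2 fold change 1.56, adjusted p = 0.00847; Nrp1, -0.70, adjusted p = 0.0447). Over all 12393 genes tested with DESeq2, 33 met the limits and 512 had an adjusted p under 0.05. Without the filter 1 member had an adjusted p under 0.05 in edgeR, Ccbe1 (1.56, adjusted p = 0.0496), against 369 of 17425 genes. The cause was not tested. Across the fits that each left out 1 nerve, 0 to 1 members were called at the limits, 0 to 1 had an adjusted p under 0.05 and 2 to 6 an unadjusted p under 0.05. Over the 12538 to 12550 genes tested in these fits, the same rules passed 27 to 35, 179 to 392 and 1461 to 2141 genes. The log2 fold change ranged from 1.16 to 2.20 for Ccbe1, from -1.02 to -0.52 for Nrp1 and from -0.0077 to 0.15 for Vegfb, which changed sign without intact nerve 2. With limma on log2(FPKM + 1), those of Ccbe1 (0.76) and Nrp1 (-0.24) shrank, as a pseudocount does at low levels. The other 6 members kept their direction in all 13 alternatives, and their side of the adjusted threshold wherever an adjusted p was given. DESeq2 gave none for Kdr.

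Same-numbered nerves did not deviate together (correlations -0.0148, 0.00586 and 0.0756 across genes). In the paired analysis with the replicate block, the log2 fold change was 1.58 for Ccbe1 and -0.72 for Nrp1. There 3 members rather than 4 had an unadjusted p under 0.05, against 1990 of all 12393 genes.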

Other observations

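Angpt1, a ligand of the endothelial receptor Tek, was singled out after its values were seen. It gave 8, 16 and 11 counts intact against 16, 17 and 23 crushed, with overlapping groups and a log2 fold change of 0.62 (standard error 0.335; edgeR's adjusted p = 0.397).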
